A study of Mus musculus with 2 samples.

Results

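Dividing epithelial cells of the mouse colon crypt that carried no count of Lgr5, the receptor that marks the stem cells of the crypt base, were described in a single-cell RNA sequencing library of wild-type colon. The library held 7495 cells, and 246 of them were chosen by their counts of 8 genes: Epcam of at least 5, Lgr5 at 0, Muc2 under 20, Chgb under 20, and Mki67, Birc5, Ube2c and Ccna2 of at least 5 when added together, which is called the division sum here. These 246 cells, named dividing Lgr5-negative cells below, were 8.18% of the 3008 cells with an Epcam count of at least 5 (95% Clopper-Pearson interval 7.22 to 9.22, which like every interval given here covers counting error only) and 3.28% of the library. The 8 genes describe the choice and support nothing else, and the counts were not raw molecules but values that the authors had corrected to a common depth, called corrected counts here.

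The wild-type library came from several adult female C57BL/6 mice whose cells were pooled before loading, so that the mice could not be told apart. Epithelium and the remaining tissue had been dissociated separately, and living cells had been sorted into an EpCAM-positive and an EpCAM-negative fraction, both without CD45, that were mixed. A second library, of GFP-positive mesenchymal cells from Pdgfra-H2B-eGFP mice, in which the Pdgfra locus drives a nuclear GFP, had been made with an earlier version of the reagent kit and held 4409 cells. It took no part in the comparisons, and 1 cell barcode occurred in both libraries. Totals of corrected counts ran from 6120 to 16389 per wild-type cell with a median of 8972, and from 2314 to 4432 with a median of 3150 in the second library.

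The lining of the colon is renewed from stem cells at the crypt base, which are kept by Wnt signals from the surrounding mesenchyme. Their daughters move up the crypt, lose stem cell genes, divide further as transit-amplifying cells and mature into absorptive colonocytes, goblet cells or enteroendocrine cells. A dividing cell first makes the proteins that copy DNA, many of them under E2F factors, and later those that build the spindle and part the chromosomes, many of them under the MuvB complex with B-Myb and FoxM1.

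All 4 division genes were above 0 in 171 of the 246 cells, and 2 cells owed their division sum to a single gene. Mki67, a protein of the mitotic chromosome surface, had a mean of 4.89 corrected counts in the dividing Lgr5-negative cells and 0.298 in the 2762 other cells with Epcam of at least 5. Birc5, the survivin subunit of the chromosomal passenger complex, had means of 6.13 and 0.289. Ube2c, the ubiquitin-conjugating enzyme of the anaphase-promoting complex, had means of 9.32 and 0.467, and Ccna2, cyclin A2, of 2.98 and 0.150. Pclaf, the PCNA-binding factor of the replication fork, was a marker of these cells that the choice did not use. Its mean was 4.87 against 0.333, its median was 2, and it was above 0 in 182 of the 246 cells, or 74.0%, against 1.18% of the 2466 wild-type cells with Epcam at 0, whose median total was 8679 against 9743.5. In the mouse genome (GRCm38) GENCODE places Mki67 at chr7:135689784-135716361, Birc5 at chr11:117849251-117855743, Ube2c at chr2:164769898-164778822, Ccna2 at chr3:36564865-36572150 and Pclaf at chr9:65890237-65903266. The keratins of simple epithelia were present, with medians of 27.5 for Krt8, 17 for Krt19 and 7 for Krt18. Of 14 genes on a list of epithelial keratins and adhesion none was listed at 0 throughout. The position of the cells in the crypt was not measured.

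Cells just inside and just outside the limit of the division sum were compared. The 20 cells with a division sum of 4 had a mean Pclaf count of 2.70, and the 25 cells with a sum of 5 one of 2.24. Their sums over a list of S phase genes averaged 29.3 and 22, and over a list of G2/M genes without the 4 division genes 35.0 and 31.6. Mcm6, a helicase subunit, had means of 1.95 and 0.96. A step further from the limit the G2/M sums were 27 at a division sum of 3 and 46.6 at 6, and the S phase sums 18.4 and 12.2. At the other limits few cells were at stake: 5 of the chosen cells had Epcam counts of 5 to 7, 1 cell with an Epcam count of 3 or 4 met the other limits, 11 of the chosen cells had Muc2 counts of 10 to 19, and 2 cells with Muc2 counts of 20 to 29 met the other limits. Of the cells with Lgr5 above 0, 26 with a single count and 36 with 2 or more met all other limits. A count of 0 for Lgr5 did not show that the gene was silent, and its mean in those 62 Lgr5-positive cells was only 2.15.

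**Figure D1:**
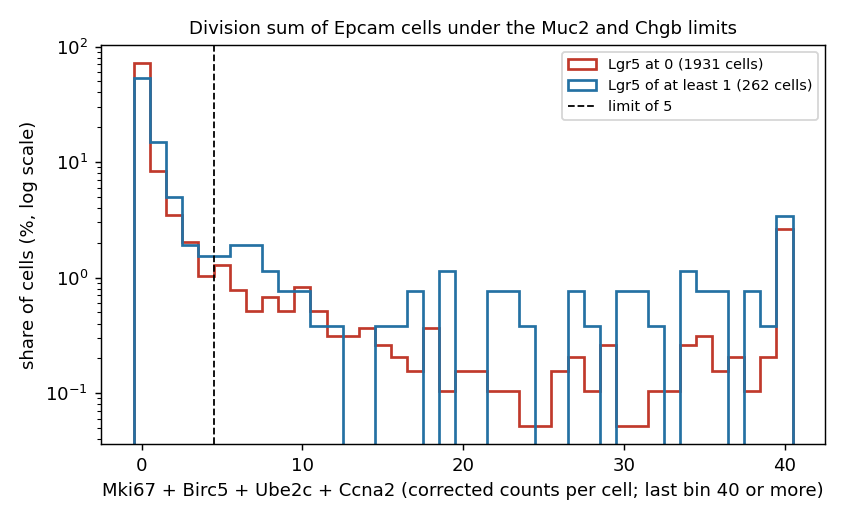
Division sum per cell (Mki67, Birc5, Ube2c and Ccna2 added, corrected counts, the last bin holding 40 or more) against the share of cells in percent on a log scale, for cells with Epcam of at least 5 under the Muc2 and Chgb limits. The red line shows the 1931 cells with Lgr5 at 0 and the blue line the 262 with Lgr5 of at least 1, and the dashed line marks the limit of 5, where neither curve has a gap.

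Of the 1931 Lgr5-negative cells under the Muc2 and Chgb limits, 12.7% had a division sum of at least 5 (11.3 to 14.3). Of the 262 Lgr5-positive cells 62 did, or 23.7% (18.7 to 29.3). Lgr5 and the division sum were values of the choice, so that these shares describe it and were not tested. The dividing Lgr5-negative cells were still the larger group, with 68.1% of all 361 epithelial cells that reached the limit (63.1 to 72.9). Among 753 cells with Muc2 of at least 20 the share was 6.77% (5.08 to 8.81). Lgr5 was above 0 in 17 of the 2466 cells with Epcam at 0, or 0.689%, and whether these counts were stray was not tested.

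Against all other cells with Epcam of at least 5, 632 of 10726 genes tested (5.89%) had a mean at least 2-fold higher in the dividing Lgr5-negative cells and 999 (9.31%) a mean at least 2-fold lower. The 2-fold limit was a fixed size and not a test, because the data came from 1 library. Which direction had more genes depended on the setting, with 402 higher and 338 lower at a pseudocount of 0.1 and 690 and 670 with means of natural log values. Cells over the Muc2 or Chgb limit stood only among the other epithelial cells, so that lower goblet and enteroendocrine genes partly describe the choice. Since the division sum had separated the dividing Lgr5-negative cells, the mitotic genes at the top of the order describe it as well. Cdc20, the activator of the anaphase-promoting complex, came first with means of 3.86 and 0.178, a 20.6-fold ratio. Ccnb1 and Ccnb2, the mitotic cyclins, had means of 2.39 and 3.47 against 0.117 and 0.208, and Cdk1, the kinase that they activate, 3.72 against 0.246. The kinases Plk1 (16.4-fold), Bub1 (14.7-fold) and Nek2 (14.6-fold) act in mitotic entry, at the spindle checkpoint and at the centrosome. Tpx2 (16.6-fold), Nusap1 (16.3-fold), Hmmr (15.3-fold) and Racgap1 (15.1-fold) bind or order the microtubules of the spindle. Cenpa, the histone variant of the centromere, had means of 3.89 and 0.218, and Top2a, which untangles sister DNA, 4.17 and 0.276. Cdkn3, a phosphatase of the cyclin-dependent kinases (18.4-fold), and Cdca3, an adaptor for the breakdown of Wee1 (14.7-fold), completed the 15 highest.

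Most of the mitotic genes on the lists were higher. Of 48 G2/M genes tested outside the division sum, 47 were at least 2-fold higher and none 2-fold lower, with a median log2 ratio of 3.51. Of all genes tested 5.89% were higher and 9.31% lower, with a median of 0.00. All 13 mitotic kinases and spindle checkpoint genes were at least 2-fold higher (median 3.77), among them Aurka (1.19 against 0.0764) and Aurkb (1.66 against 0.119). So were 17 of 18 kinetochore and centromere genes (median 3.33), 22 of 23 genes of the spindle and mitotic kinesins (median 3.51) and 13 of 15 of chromosome condensation and cohesion (median 3.17). Stmn1, a tubulin-binding protein on the spindle list, was among the most abundant with means of 10.4 and 1.78. Of 17 genes of the anaphase-promoting complex and its regulators 8 were 2-fold higher, with a median of 0.85.

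DNA replication genes were higher as well, by smaller ratios. The other epithelial cells included cells with many S phase counts and a division sum under 5, whose part in these ratios was not tested. Of 40 S phase genes 32 were at least 2-fold higher and none lower, beside 5.89% and 9.31% of all genes, with a median log2 ratio of 1.73. Origin licensing and helicase genes followed with 13 of 17 (median 1.51), where Mcm5, a subunit of the replicative helicase, had means of 0.927 and 0.215 and Mcm6 of 0.821 and 0.362. At the replication fork 21 of 22 genes were 2-fold higher (median 1.60), for nucleotide synthesis 8 of 16 (median 0.97) and for homologous recombination and checkpoint genes 8 of 9 (median 1.69). Tyms and Rrm2, which make thymidylate and deoxynucleotides, had means of 1.87 and 1.12 against 0.371 and 0.134. All 18 genes of a chromatin and DNA methylation list were 2-fold higher (median 1.84), led by the DNA-bending protein Hmgb2 with means of 21.5 and 2.65, and including the maintenance methylation pair Dnmt1 (0.622 and 0.189) and Uhrf1 (0.797 and 0.149).

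The regulators of this programme were also present. Of 17 genes tested on a list of E2F, Rb and MuvB regulators 8 were 2-fold higher, beside 5.89% of all genes, with a median log2 ratio of 0.98. Foxm1, the forkhead factor of the mitotic genes, had means of 0.358 and 0.0250, and E2f8, a repressor within the E2F family, of 0.638 and 0.0731. Among 16 cyclins and their kinases 9 were 2-fold higher (median 1.06), but the D-type cyclins were not: Ccnd1 had means of 0.963 and 0.712, Ccnd2 of 1.72 and 1.82, and Ccnd3 of 0.305 and 0.371. Of 6 inhibitors of cyclin-dependent kinases 2 were 2-fold higher and 1 was 2-fold lower, beside 5.89% and 9.31% of all genes. Cdkn2c had means of 0.402 and 0.0753, and Cdkn1a, the p21 inhibitor that stops the cycle, was lower by less than 2-fold at 1.70 against 3.29.

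Promoters of the genes that were high together are shown, since many of them share short sequences. The choice did not use the sequences, but it used Mki67, and genes high along with the division genes describe that choice. The 250 bases before the transcription start, from RefSeq on the build GRCm38.p6, are printed 5′ to 3′ on the strand of the gene. Capitals mark CCAAT, the letters bound by NF-Y, TTTGAA, those of the cell cycle genes homology region (CHR) bound by MuvB, and TTTCCCGC or TTTGGCGC, an E2F element, each searched on both strands. Matches were allowed to overlap, so that CCAATTGG would count as a match on each strand. Mki67 (chr7:135716380-135716629, minus strand), Cdc20 (chr4:118437344-118437593, minus strand) and Ccnb2 (chr9:70421555-70421804, minus strand) stand for the mitotic genes, and Mcm6 (chr1:128359706-128359955, minus strand) is a replication gene with the E2F letters.
Mki67: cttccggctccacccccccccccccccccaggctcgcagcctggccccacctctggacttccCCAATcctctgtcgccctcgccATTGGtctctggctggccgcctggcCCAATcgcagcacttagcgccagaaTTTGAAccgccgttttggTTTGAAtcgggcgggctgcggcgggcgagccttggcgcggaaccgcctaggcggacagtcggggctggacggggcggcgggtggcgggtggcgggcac
Cdc20: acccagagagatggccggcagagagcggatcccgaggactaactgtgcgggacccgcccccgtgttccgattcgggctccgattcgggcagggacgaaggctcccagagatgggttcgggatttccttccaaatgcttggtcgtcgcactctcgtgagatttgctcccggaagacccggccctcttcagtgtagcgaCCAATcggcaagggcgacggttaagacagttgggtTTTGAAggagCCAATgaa
Ccnb2: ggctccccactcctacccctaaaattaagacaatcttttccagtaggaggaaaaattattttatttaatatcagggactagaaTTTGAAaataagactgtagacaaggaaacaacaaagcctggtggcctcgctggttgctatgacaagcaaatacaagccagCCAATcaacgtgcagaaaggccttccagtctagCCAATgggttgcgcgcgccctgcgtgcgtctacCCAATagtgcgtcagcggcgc
Mcm6: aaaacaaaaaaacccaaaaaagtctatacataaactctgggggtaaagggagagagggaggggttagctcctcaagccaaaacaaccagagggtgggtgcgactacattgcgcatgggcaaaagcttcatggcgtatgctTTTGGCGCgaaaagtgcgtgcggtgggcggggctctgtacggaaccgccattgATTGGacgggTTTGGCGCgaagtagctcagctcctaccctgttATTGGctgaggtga

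Mki67 held 3 CCAAT and 2 TTTGAA matches, Cdc20 2 and 1, and Ccnb2 3 and 1. Ube2c, whose sequence is not shown, held 6 and 1 in the same 250 bases, and Pclaf, also not shown, held 2 CCAAT and neither of the others. Mcm6 held 2 CCAAT and 2 E2F matches and no TTTGAA, and Birc5 held none of these letters in its window. In windows from 250 bases before to 50 bases after the start, TTTGAA occurred in 65.3% of the 49 windows of G2/M genes, in 17.6% of the 34 windows of S phase genes and in 17.9% of all 32851 windows. CCAAT occurred in 75.5%, 67.6% and 37.4%, and the E2F letters in 4.08%, 29.4% and 1.56%. Over the 8319 tested genes with a window, 6.16% were at least 2-fold higher in the dividing Lgr5-negative cells than in other epithelial cells. That share was 8.33% of the 3554 genes with CCAAT, close to that of all genes, 12.0% of 1172 genes with TTTGAA, 17.2% of 565 with both TTTGAA and CCAAT, and 17.4% of 293 with the E2F letters. Because the division genes had made this comparison, these shares describe genes high along with them and are not a test. A match describes the letters in the window and not a bound site.

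The sums over the lists spread widely among the 246 cells. The G2/M sum ran from 14 to 299 with a median of 105, against a median of 13 in the 1685 cells that met the same Epcam, Lgr5, Muc2 and Chgb limits with a division sum under 5, called low-division cells here. The S phase sum ran from 0 to 120 with a median of 14, against 4. Across the 246 cells the G2/M sum and the division sum had a Spearman correlation of 0.92, and the S phase and G2/M sums one of 0.43. The sums were also correlated with the total per cell (0.56 for the G2/M sum, 0.50 for the division sum and 0.43 for the S phase sum). The cells share 1 library, and the part of the totals was not tested.

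**Figure D2:**
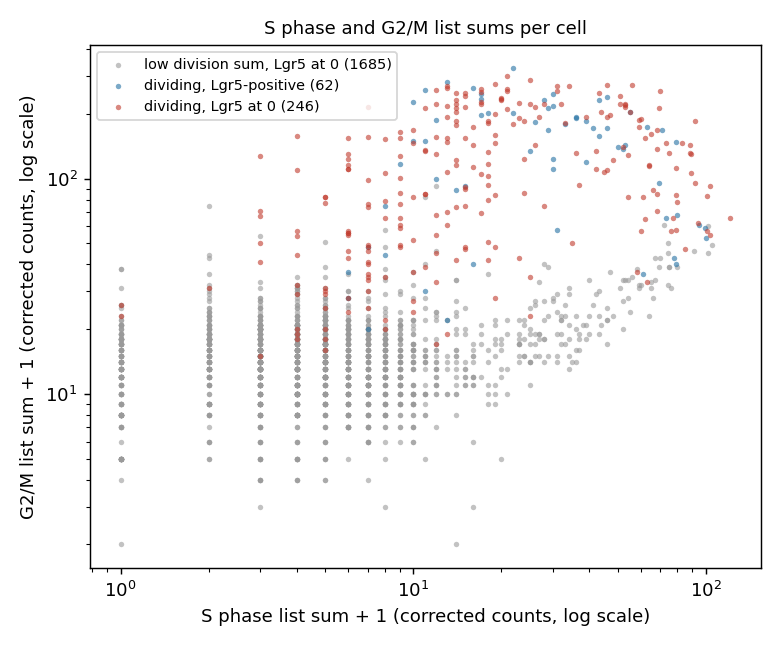
S phase list sum (horizontal) against G2/M list sum without the division genes (vertical), both plus 1 in corrected counts on log scales, each point being a cell. Dividing Lgr5-negative cells (red, 246) and dividing Lgr5-positive cells (blue, 62) spread over the same range, with G2/M medians of 105 and 148, and most of the 1685 low-division cells (grey, median 13) lie below them.

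With each sum divided by its mean over the 246 cells, 85 cells were richer in S phase and 161 in G2/M counts, and 58 of them lay close to the boundary. Pclaf, which is on neither list, had a mean of 9.38 in the S-rich cells and 2.48 in the G2/M-rich cells. The genes with the highest S-rich to G2/M-rich ratio were Ccne1, cyclin E1 of the entry into S phase (0.471 and 0.0124), Mthfd1l, of mitochondrial one-carbon metabolism (0.259 and 0.00621), and Cdc6, which loads the helicase at origins (0.318 and 0.0124). In the G2/M-rich cells each of these 3 rested on very few counts. Cdc20 had means of 1.25 and 5.24, and Cenpa of 1.39 and 5.21. These 2 genes are on the G2/M list and Cdc6 and Mcm6 on the S phase list, so that their values describe the division into S-rich and G2/M-rich cells. The genes with the lowest ratio were Ceacam20 (0 and 0.130), Saa1 (0.0471 and 0.758) and Fabp4 (0.0235 and 0.429), which were above 0 in 6, 14 and 5 of the 246 cells and so rested on few cells. Mcm6, whose promoter with its E2F letters is printed above, had means of 1.89 and 0.255.

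The division sum held no S phase gene, and cells with many S phase counts were found below its limit. Of the 1685 low-division cells 170 (10.1%, 8.69 to 11.6) reached the S phase median of the dividing Lgr5-negative cells. Their mean Mcm6 count was 2.59, against 1.89 in the S-rich dividing cells, Mcm6 being on the list that singled them out. Pclaf and Top2a, which are not on it, had means of 1.41 and 0.424 in them, and 9.38 and 5.34 in the S-rich dividing cells. Their median G2/M sum was 18, against 105. Among the 200 low-division Lgr5-positive cells 81 did so, or 40.5% (33.6 to 47.7). The dividing Lgr5-negative cells were thus those rich in late cell cycle transcripts and did not take in every cell with replication transcripts.

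Against the low-division cells 812 of 10726 genes (7.57%) were at least 2-fold higher and 827 (7.71%) at least 2-fold lower, and the division sum had made this contrast. With means of natural log values these counts were 893 and 553. The highest 5 were Nusap1 (2.35 and 0.0166), Ccnb1 (2.39 and 0.0237), Hmmr (1.89 and 0.0178), Cdc20 (3.86 and 0.0552) and Plk1 (1.32 and 0.0136), all mitotic. The lowest 5 were the gut hormones Insl5, Pyy and Gcg and the globins Hbb-bs and Hbb-bt. Insl5 had means of 0.0285 and 6.99, Gcg of 0.0366 and 6.79, and Pyy of 0.0935 and 15.2. Few cells carried these means, since Pyy was above 0 in 6.47% of the low-division cells and in 8.54% of the dividing ones, and cells with high hormone counts remained under the Chgb limit. Of 13 enteroendocrine genes 11 were 2-fold lower (median -2.57), with a sum of 0.463 against 30.9. Hbb-bs, a globin of red blood cells, had means of 0.0772 and 6.54, and 8.47 in cells with Epcam at 0. Taken as means of natural log values, the log2 ratios over low-division cells were much smaller: -1.46 in place of -7.51 for Insl5, -1.46 in place of -7.19 for Gcg, -1.38 in place of -6.23 for Hbb-bs, and for Pyy -0.83 in place of -7.20, which is under 2-fold.

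Absorptive colonocyte genes, which make the transport and surface proteins of the mature colon, were lower than in the low-division cells. Of 31 absorptive genes 25 were 2-fold lower than in low-division cells and none higher, with a median log2 ratio of -1.96. Of all genes 7.71% were lower and 7.57% higher, with a median of 0.10. The absorptive sum averaged 66.2 in the dividing Lgr5-negative cells and 210 in the low-division cells, a log2 ratio of -1.67, and the medians were 49 and 93. Taken as a mean of natural log values the log2 ratio was -1.03. All 10 fibroblast markers were 2-fold lower in this comparison too, with sums of 3.99 and 11.0, and mitochondrial transcripts had medians of 8.39% and 11.0%. With cells of at least 10 counts of fibroblast, endothelial, muscle or immune markers left out, the log2 ratio of the sums was -1.71. With cells of at least 25% mitochondrial counts left out, it was -1.66. Their part was not tested further. Lypd8, a surface protein of colonocytes that holds off flagellated bacteria, was the most abundant with means of 16.2 and 63.3, and it was above 0 in 97.6% of the dividing Lgr5-negative cells against 36.1% of cells with Epcam at 0. Guca2a, the hormone guanylin, had means of 2.74 and 18.1, Krt20, a keratin of mature surface cells, of 0.211 and 2.67, and Aqp8, a water channel, of 0.110 and 1.38.

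Absorptive genes separated the dividing Lgr5-negative cells from the dividing Lgr5-positive cells in the other direction. Against those 62 cells, which differed from them by the Lgr5 limit alone, 675 of 10726 genes (6.29%) were at least 2-fold higher and 831 (7.75%) at least 2-fold lower. Many of these rested on few counts: with genes of a mean of at least 0.2 over all epithelial cells the counts were 411 and 156, with a pseudocount of 0.1 on the means 224 and 201, and with each cell thinned to 5000 counts 799 and 628. Which direction had more genes thus changed with the setting, and the totals are not read as genes that differ. The median over all genes was -0.15 on the log2 scale, so that list medians are read against that shift. Of the 31 absorptive genes 21 were 2-fold higher in the Lgr5-negative cells and none lower, with a median of 1.68, and the absorptive sums averaged 66.2 and 24.7. Cells with at least 10 counts of fibroblast, endothelial, muscle or immune markers were 12.6% of the former and 6.45% of the latter. The fibroblast sums were 3.99 and 2.61, and 4 of 7 endothelial markers were 2-fold higher. With cells of at least 10 such counts left out, 693 genes were at least 2-fold higher and 777 lower. Their part in the absorptive values was not tested. Lypd8 had means of 16.2 and 3.79, and Guca2a of 2.74 and 0.371.

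Most cell cycle genes were within 2-fold between the dividing cells with and without Lgr5. None of the 48 G2/M genes was 2-fold higher and 2 were 2-fold lower (median -0.39), and of 40 S phase genes none was higher and 2 were lower (median -0.37). Of all genes 6.29% were higher and 7.75% lower, with a median of -0.15. Homologous recombination and checkpoint genes had a lower median of -0.80, with 2 of 9 at least 2-fold lower and none higher. The G2/M sums averaged 118 and 142 and the S phase sums 25.7 and 34.1. Cdk1 had means of 3.72 and 3.74, and Top2a of 4.17 and 5.05. A cell of the former had a median of 3436.5 genes and one of the latter 3585.5, and the part of this difference in the small ratios was not tested.

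Among the 5 genes with the highest ratio over the dividing Lgr5-positive cells, Car1, the carbonic anhydrase of colonocytes, had a mean of 6.67 corrected counts. In the Lgr5-positive cells it had 5 counts in 5 of 62 cells, a mean of 0.0806. Its log2 ratio was 6.20, and 3.83 with means of natural log values. Car1 was above 0 in 36.2% of the dividing Lgr5-negative cells and also in 31.2% of cells with Epcam at 0, where its mean was 0.400, so that a single count was not read as expression. A count of at least 5 occurred in 34 of the 246 cells (13.8%, 9.77 to 18.8) and in 0 of the 62, which allows a share of up to 4.84% by a limit of 3 cells and 5.78% by the Clopper-Pearson interval. These 34 cells had a mean of 45.7 and carried the mean of all 246, since the other 212 had a mean of 0.415, close to that of cells with Epcam at 0. Gsdmc4, a gasdermin, had means of 3.17 and 0.129 and was above 0 in 55.7% of the dividing Lgr5-negative cells against 4.74% of cells with Epcam at 0. Gsdmc3 (mean 0.472) and Chp2 (0.211), a calcium-binding partner of sodium-proton exchangers, were listed at 0 in all 62 Lgr5-positive cells, and Cyp2c55 (0.760), a cytochrome P450, had 1 count there. Chp2 was above 0 in 16.7% of the dividing Lgr5-negative cells and in 19.1% of those with Epcam at 0, and the source of its counts was not tested.

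Wnt targets and crypt base genes followed Lgr5, which was not on their list. Of 17 tested, 11 were at least 2-fold lower in the dividing Lgr5-negative than in the dividing Lgr5-positive cells and 1 was higher, with a median log2 ratio of -1.29. Of all genes 7.75% were lower and 6.29% higher, with a median of -0.15. Their sums averaged 12.1 and 27.9. Smoc2, a matricellular protein of crypt base cells, was among the 5 lowest genes of all with means of 0.390 and 3.16, and it was above 0 in 24.4% and 93.5% of the cells, against 3.33% of cells with Epcam at 0. Axin2, the feedback target of Wnt signalling, had means of 0.240 and 1.29, Ascl2, a stem cell transcription factor, of 0.276 and 1.06, and Cd44, the hyaluronan receptor, of 0.593 and 2.68. Igfbp4, the 1 higher gene, had means of 0.175 and 0.0161, with 1 count in the Lgr5-positive cells and a mean of 8.21 in cells with Epcam at 0. The other genes among the 5 lowest were the chemokine Ccl20 (0.0854 and 0.839), the urea cycle enzyme Cps1 (0.0854 and 0.726), the kinase Dmpk (0.0203 and 0.258), and Eps8l1, which was listed at 0 in the Lgr5-negative cells and had 6 counts in 6 Lgr5-positive cells.

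Compared with low-division cells, the same Wnt list showed no gene 2-fold higher and 1 of 17 lower, near the 7.71% of all genes, and a median of 0.51 beside 0.10. Its sum was 12.1 in the dividing Lgr5-negative cells, 11.3 in the low-division cells and 12.6 in all other epithelial cells, a log2 ratio of -0.06 over the latter. The sign of that small ratio changed with the setting, up to 0.18 with means of natural log values. Low-division Lgr5-positive cells had a sum of 27.2, close to the 27.9 of the dividing ones. Cells with Epcam at 0, where Igfbp4 of this list was high, had a sum of 12.4. The sum alone is therefore not read as a level of Wnt signalling. The low-division class was mixed, with a median Wnt sum of 16 in its 170 cells with many S phase counts and 8 in the other 1515, against 11 in the dividing Lgr5-negative cells. Myc, a transcription factor of cell growth on this list, had means of 0.451 in the dividing Lgr5-negative, 0.307 in the low-division and 0.887 in the dividing Lgr5-positive cells.

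**Figure D3:**
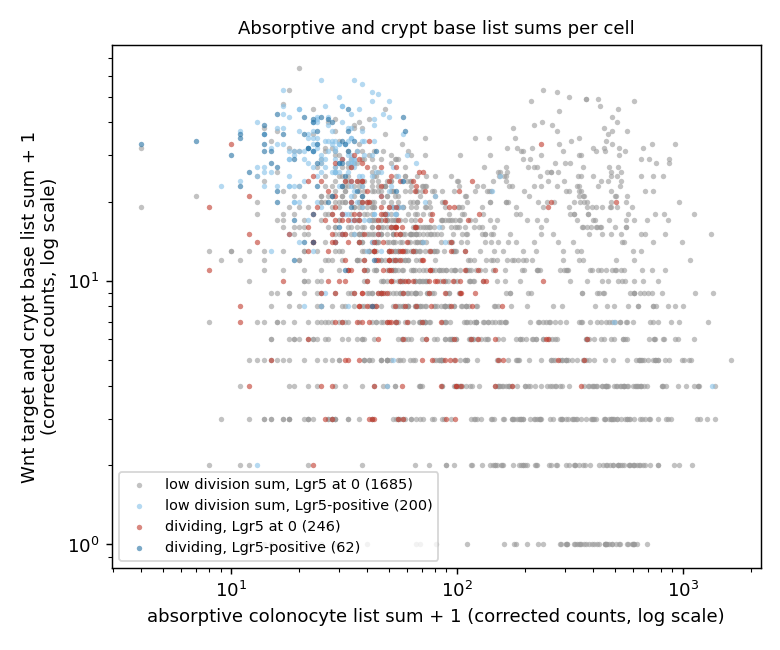
Absorptive colonocyte list sum (horizontal) against the sum of Wnt target and crypt base genes (vertical), both plus 1 in corrected counts on log scales, each point being a cell. Dividing Lgr5-negative cells (red) have a median absorptive sum of 49, between the dividing Lgr5-positive cells (dark blue, 22.5) and the low-division Lgr5-negative cells (grey, 93). Their median Wnt sum is 11, against 30 and 9, and low-division Lgr5-positive cells (light blue) have medians of 29 and 27.

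Within the dividing Lgr5-negative cells the absorptive sum ran from 7 to 508, and the cells were divided by it into 3 equal parts of 82, with sums of 7 to 37, 38 to 60 and 63 to 508. In a comparison of the lowest with the highest part, chosen after the data were seen, 1050 of 10726 genes (9.79%) were at least 2-fold higher in the lowest and 1216 (11.3%) at least 2-fold lower. Of the 17 Wnt targets and crypt base genes 10 were higher in the lowest part and 1 was lower, with a median log2 ratio of 1.10 beside -0.10 over all genes. Ascl2 had means of 0.695, 0.134 and 0, Cd44 of 1.12, 0.488 and 0.171, and Axin2 of 0.390, 0.183 and 0.146. Slc12a2, a chloride transporter of crypt cells on the same list, had means of 3.93, 3.99 and 1.89. Hes1, a Notch target, had 2.38, 1.98 and 1.38, and the inhibitor Cdkn1a had 1.30, 1.44 and 2.34. Secretory genes were higher in the lowest part too, with 10 of 15 goblet products (median 1.23), 8 of 13 secretory lineage factors and Notch ligands (median 1.07) and 4 of 7 deep crypt secretory genes (median 1.09), against 1, 0 and 1 lower. A minority carried the goblet means, since the goblet sum had medians of 6.5, 9 and 7 and means of 32.8, 46.3 and 12.6 over the 3 parts, and its Spearman correlation with the absorptive sum was -0.05. Also higher were 9 of 10 fibroblast markers, and their part in the other differences was not tested. The sum over the whole Wnt list averaged 13.8, 12.1 and 10.3, and its Spearman correlation with the absorptive sum across the 246 cells was -0.22, a weak one in sparse counts of 1 library. Cells with Epcam at 0 had a sum of 12.4 on this list, and the part of stray counts was not tested.

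All 246 cells had been chosen by a division sum of at least 5, which limits how far their cell cycle genes can differ. Of 48 G2/M genes 1 was 2-fold higher in the lowest part and none lower (median -0.10), and of 40 S phase genes 2 were higher and none lower (median 0.16). Of all genes 9.79% were higher and 11.3% lower, with a median of -0.10. The G2/M sums averaged 111, 121 and 121 over the 3 parts and the S phase sums 25.4, 28.3 and 23.2. The division sum itself had medians of 14, 15.5 and 20, and its gene Mki67 means of 4.32, 4.82 and 5.52. Outside the choice, Top2a had means of 4.22, 3.95 and 4.34 and Pclaf of 4.60, 5.22 and 4.78. The 3 parts had medians of 3393.5, 3498.5 and 3469 genes. Cells with at least 10 counts of fibroblast, endothelial, muscle or immune markers numbered 20, 9 and 2, and their part in these differences was not tested.

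**Figure D4:**
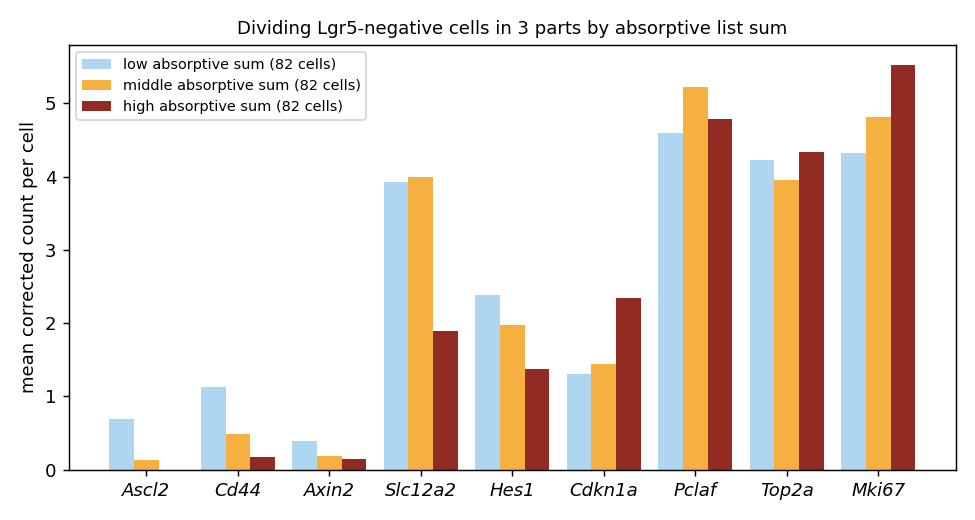
Mean corrected count per cell (vertical, from 0) of 9 genes in the 246 dividing Lgr5-negative cells, divided into 3 equal parts of 82 cells by their absorptive sum (light blue lowest, orange middle, dark red highest). Ascl2, Cd44 and Axin2 are highest in the lowest part and Cdkn1a in the highest part, while Pclaf and Top2a show no such order. No error bars are drawn, because cells of 1 library are not replicates.

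Most dividing Lgr5-negative cells had few goblet transcripts, and a minority had many. The goblet sum had a median of 7 and a highest value of 494, and 41 cells (16.7%, 12.2 to 21.9) reached 20. Of 15 goblet genes, 13 were 2-fold lower than in all other epithelial cells (median -2.65), beside 9.31% of all genes, but those include the cells with Muc2 of at least 20 that the choice had removed. Against low-division cells, which meet the same Muc2 limit, 1 of the 15 was lower, near the 7.71% of all genes, and none higher. The median was 0.24 and the sums were 30.6 and 22.3. In the dividing Lgr5-negative cells and in all other epithelial cells Zg16, a lectin of the mucus, had means of 0.163 and 19.7. Clca1 had means of 0.110 and 5.62 there, and Retnlb of 0.0772 and 3.45. These were among the 10 lowest genes over other epithelial cells, with Insl5, Gcg, Pyy, Resp18 (listed at 0), Hbb-bs, Pcsk1n and Chga. The other epithelial cells also include the 65 cells with Chgb of at least 20 that the choice had removed. The low enteroendocrine genes in this comparison therefore describe the choice in part. With means of natural log values the log2 ratio of Zg16 over other epithelial cells was -2.59 in place of -6.84, and that of Pyy was -0.62 in place of -6.72. Against dividing Lgr5-positive cells 8 of the 15 goblet genes were 2-fold higher and none lower (median 1.39), beside 6.29% and 7.75% of all genes. Agr2, a protein disulfide isomerase needed for mucin folding, had means of 14.6 and 5.42, and Tff3, a trefoil peptide, of 5.50 and 1.13. A minority carried these means: the 41 cells with a goblet sum of at least 20 had means of 63.3 for Agr2 and 32.3 for Tff3, and the other 205 had 4.92 and 0.141. Of the dividing Lgr5-positive cells 3 reached a goblet sum of 20, and the other 59 had means of 4.27 and 0.153.

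Atoh1, the transcription factor that starts the secretory lineage, was above 0 in 19 of the 246 cells (7.72%, 4.71 to 11.8), against 0.324% of cells with Epcam at 0 and 1 of the 62 dividing Lgr5-positive cells. Those 62 cells were too few to tell their share from that of the 246. These 19 cells had a median goblet sum of 162 and a median division sum of 9, against 15.5 in all 246. Atoh1 was on a list of secretory lineage factors and Notch ligands, of whose 13 tested genes 8 were 2-fold lower than in all other epithelial cells (median -1.06, beside 9.31% of all genes). Against low-division cells 1 was lower and none higher (median 0.37), near the 7.71% of all genes. Against dividing Lgr5-positive cells 5 were higher and 2 lower (median 0.63), beside 6.29% and 7.75% of all genes. Another 48 cells with Muc2 of at least 20 met all other limits, so that dividing cells with goblet transcripts lay on both sides of the Muc2 limit.

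Notch response genes were few. Of 5 tested, 2 were at least 2-fold higher than in low-division cells, beside 7.57% of all genes, and none lower (median 0.38): Nrarp, a feedback inhibitor, had means of 0.50 and 0.20, and the receptor Notch1 of 0.419 and 0.204. Against dividing Lgr5-positive cells none was higher and 1 was lower (median -0.64), beside 6.29% and 7.75% of all genes, with sums of 3.03 and 4.89. Of 22 ribosome biogenesis genes 4 were 2-fold higher than in low-division cells and none lower, and their median log2 ratio of 0.85 stood beside 0.10 over all genes. Their sum was 27.7 in the dividing Lgr5-negative cells, 16.8 in the low-division cells, 37.3 in the dividing and 37.0 in the low-division Lgr5-positive cells. Of 14 glycolysis genes 4 were 2-fold lower than in low-division cells (median -0.49, beside 7.71% of all genes) and 3 were 2-fold higher than in dividing Lgr5-positive cells (median 0.79, beside 6.29%). Hk2, a hexokinase, had means of 0.837, 2.44 and 0.50 in the dividing Lgr5-negative, the low-division and the dividing Lgr5-positive cells, and Aldoa, an aldolase, of 2.61, 7.23 and 0.726.

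**Figure D5:**
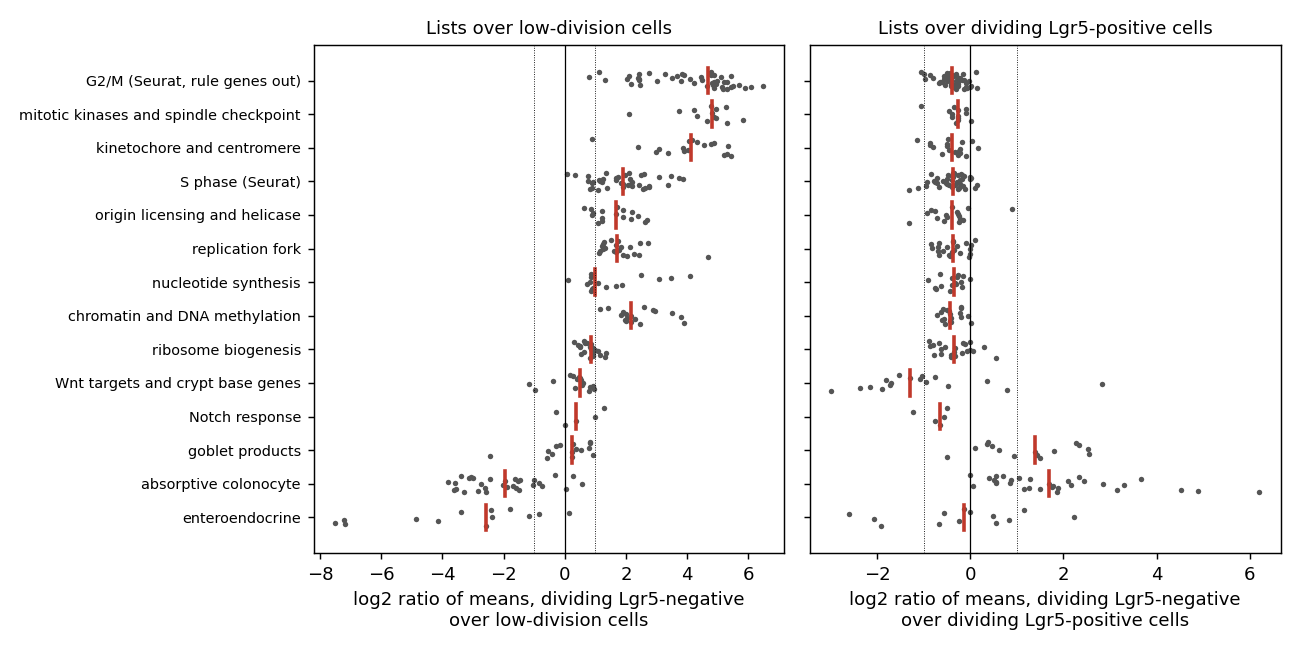
Log2 ratio of mean corrected counts for the genes of 14 lists (each point a gene, red bars the list medians), dividing Lgr5-negative cells over low-division cells on the left and over dividing Lgr5-positive cells on the right, with dotted lines at 2-fold. Cell cycle lists lie to the right of 0 in the left panel and close to 0 in the right panel, and the absorptive list has medians of -1.96 and 1.68.

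Markers of other cell types were low in the dividing Lgr5-negative cells. The sum of 10 fibroblast markers averaged 3.99 (Dcn the most abundant, 0.935), against 9.75 in the other epithelial cells and 216 in cells with Epcam at 0. The sum of 8 smooth muscle and pericyte markers averaged 1.34 (Acta2 0.598) and that of 10 endothelial markers 0.626 (Plvap 0.175), with none of these at 0 throughout. The immune sum averaged 0.134 (C1qa 0.0285), against 0.0666 in the other epithelial cells, with 4 of 13 listed genes at 0, and the erythroid sum 0.175 with 1 of 5 at 0. In 31 of the 246 cells (12.6%) the fibroblast, endothelial, muscle and immune markers together reached 10 counts, and in 18.6% of the other epithelial cells. Those 31 cells had a median of 2134 genes, a mean Pclaf count of 1.84 and a mean G2/M sum of 76.4, against 3440, 5.30 and 124 in the other 215. Of the 246 cells 17 were among the 5% of the library with the highest doublet scores, against 118 of the 2762 other epithelial cells and 1 of the 62 dividing Lgr5-positive cells. The median scores were 0.0260, 0.0160 and 0.0148. With the highest 5% of scores left out, the dividing Lgr5-negative share of epithelial cells was 7.97% in place of 8.18%. The log2 ratio of the G2/M sum over other epithelial cells was then 2.70 in place of 2.67. The part of doublets was not tested further. Mitochondrial transcripts made up a median of 8.39% of the counts in the dividing Lgr5-negative cells and 9.77% in the other epithelial cells, and ribosomal protein transcripts 18.4% and 17.1%.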

How the data were processed

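The authors aligned the reads with Cell Ranger to mm10, kept cells within limits on genes and mitochondrial share, and corrected the counts with SCTransform in Seurat 3.1 under R 3.6.2. The deposited whole numbers were such depth-corrected counts and have the unit of a score, not of raw molecules, so that the sequencing depth of a cell is unknown. The deposited log table held the natural log of 1 plus that value, in each cell of both libraries. Class means of the whole numbers were compared as log2 ratios with a pseudocount of 0.01, for the 10726 genes with a mean of at least 0.05 over all cells with Epcam of at least 5, the 8 genes of the choice left out. With 1 library of pooled mice no test was run. Named genes were those of the choice, Pclaf, the 15 highest and 10 lowest ratios over other epithelial cells, the 5 highest and 5 lowest of the other comparisons, 3 at each end between S-rich and G2/M-rich cells, and genes of the lists. The members and lists were chosen with earlier results of these data known. Scrublet in scanpy 1.11.5 marked 7 of 7495 cells as doublets, too few to be of use, so that doublets were not removed from the main results. Gene names matched GENCODE M21 for 97.7% of 17809 genes. Python 3.11.15, numpy 2.4.6, scipy 1.17.1, pandas 2.3.3 and matplotlib 3.10.9 were used, and the calculation was checked on simulated data. Alternatives changed the limits of the choice, the depth, the scale, the filter and the pseudocount. Others left out cells: those at or above 25% mitochondrial counts, Scrublet doublets, the highest doublet scores, or cells with at least 10 marker counts of other cell types.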

Additional observations from a re-analysis of the deposited data

Results flagged for a closer look

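Division transcripts also appeared in cells outside the comparisons. In the wild-type library 14 of 4487 cells with Epcam under 5 (0.312%, 0.171 to 0.523) had a division sum of at least 5, above the 0.0669% that a count of 0 allows. Their fibroblast marker sum had a mean of 202 and a median of 212, against a mean of 3.99 in the dividing Lgr5-negative cells. In the library of GFP-positive mesenchyme 16 of 4409 cells (0.363%, 0.208 to 0.589) reached the same division sum, above 0.0680%, and their fibroblast sum averaged 50.3. In that library 28 of 4409 cells had Epcam of at least 5 (0.635%, 0.422 to 0.917), with a fibroblast sum of 0.714, and 2 of them also reached the division sum. Lgr5 was not listed in its table, so that the choice could not be made there. Any count above 3 cells passes the limit of a count of 0, which only led to these cells being listed. The source of these cells was not tested.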

How the results depend on the processing

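Of 166 values of the counts, shares and sums under other settings 146 stayed within 1.5 times the count or ratio, or within the interval of the share, and 20 moved further, and of 665 values of 45 named gene ratios 584 and 81 did. Counts within that limit still moved: with Epcam of at least 2, 1138 genes were higher and 1239 lower than in low-division cells, in place of 812 and 827, and 1380 in place of 999 lower than in other epithelial cells. No ratio of at least 2-fold changed sign, but the Wnt log2 ratio of -0.06 was 0.06 with Epcam of at least 2 and 0.18 on the log scale. With a division sum of at least 3 the dividing Lgr5-negative share of epithelial cells was 10.1% and the dividing share of Lgr5-negative cells 15.8%. With at least 10 these were 5.75% and 8.96%, and the dividing share of Lgr5-positive cells was 16.4%. With Epcam of at least 2 they were 6.71% and 9.58%. The absorptive log2 ratio was -1.03 on the log scale. With cells of at least 10 marker counts of other cell types left out, the Hbb-bs log2 ratio over low-division cells was -5.09 in place of -6.23. Over other epithelial cells that of Gcg was then -6.10 in place of -6.84, while that of Retnlb was larger, at -5.93 in place of -5.31. With a mean of at least 0.2, which tests fewer genes, 314 genes were higher and 501 lower than in other epithelial cells, 424 and 431 than in low-division cells, and 411 and 156 than in dividing Lgr5-positive cells. With a pseudocount of 0.1, which shrinks ratios of low means, these were 402 and 338, 474 and 309, and 224 and 201. Added after seeing the data, leaving out low-division cells with S phase counts gave a Wnt log2 ratio of 0.03. Leaving out the 5% highest doublet scores, the other addition, gave a Wnt log2 ratio of -0.05 and an absorptive one of -1.66. The limits are 1 library, pooled mice, corrected counts in place of molecules, doublets left in, free RNA in the droplets, and no measured position in the crypt. Lgr5 at 0 and Lgr5 unseen cannot be told apart.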

Other observations

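Neurog3, the factor that starts the enteroendocrine line, fell under the filter on low means and was singled out after its values were seen. It was above 0 in 5 of the 246 dividing Lgr5-negative cells (2.03%), with a highest count of 20, in 0.119% of the low-division cells and in none of the 62 dividing Lgr5-positive cells or the 2466 cells with Epcam at 0. A count of 0 in 62 cells allows a share of up to 5.78% by the Clopper-Pearson interval. Neurog3 thus does not set the dividing cells with and without Lgr5 apart. Of 15 immediate early and heat shock genes, which tissue dissociation is known to induce, none differed 2-fold between the dividing Lgr5-negative cells and the other epithelial cells. Fos had means of 12.7 and 12.0 there. Against low-division cells 1 was higher, and against dividing Lgr5-positive cells 1 was lower, near the 7.57% and 7.75% of all genes. The sums were 81.5 in the dividing Lgr5-negative, 83.3 in the low-division and 99.8 in the dividing Lgr5-positive cells. Of 14 interferon and antigen presentation genes 4 were 2-fold higher than in the dividing Lgr5-positive cells and none lower (median log2 ratio 0.70), beside 6.29% of all genes, and Irf7 had means of 0.341 and 0.0645. Against the low-division cells 3 were lower and none higher (median -0.45), beside 7.71% of all genes. Against the other epithelial cells 1 was lower and none higher (median -0.33), near the 9.31% of all genes. Of 6 BMP response genes none differed 2-fold from the other, the low-division or the dividing Lgr5-positive cells. Of all genes 5.89%, 7.57% and 6.29% were higher in these comparisons and 9.31%, 7.71% and 7.75% lower. With 6 genes, none is near those shares. Id1 was the most abundant with a mean of 4.68, and the sum averaged 8.14, against 18.7 in cells with Epcam at 0.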
